A study of Mus musculus with 4 samples.

Results

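Colon of wild-type (WT) mice that went through a colitis-associated cancer protocol was set against colon of untreated WT mice, using 2 of the 4 libraries of the series. All 4 groups are C57BL/6 mice with 1 library each: WT untreated, WT treated, and the same pair from mice labelled Card9-/-, a deletion of a myeloid signalling adaptor. Treated mice received azoxymethane (AOM), a colon mutagen, at 10 mg/kg on day 1, and 5 days later began dextran sulfate sodium (DSS), a polymer that injures the colon lining, at 2% in drinking water for 3 cycles of 7 days each. They were killed on day 100, while untreated colon carries the label day 0, so treatment and age at collection cannot be told apart. Whether a library holds 1 mouse or a pool, and the time of day at collection, were not stated in the labels.

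The genes described are the 15356 of 44788 gene rows with 50 raw counts or more in at least 1 WT library. Levels are counts scaled to library size and composition (CPM) and are written in the order untreated, then AOM/DSS. A gene is called higher or lower when the log2 ratio of CPM + 1 reaches 2-fold, so a low gene needs a larger CPM ratio to be called. With 1 library per group there is no test and no replicate check. Printed folds are CPM ratios, and the intervals after them are exact 95% counting intervals, which hold no variation between mice. By this rule 627 genes (4.08%) were higher in AOM/DSS and 596 (3.88%) were lower, and over the 15356 genes the log2 ratio had a median of 0.02. Counts of called members in a list are to be read beside the shares of 4.08% and 3.88%. At least 4-fold, 169 (1.1%) were higher and 87 (0.567%) lower, and at least 10-fold 49 (0.319%) and 6 (0.0391%). The same rule called 1202 of 15352 genes (7.83%) between the untreated library labelled Card9-/- and untreated WT, 685 (4.46%) higher and 517 (3.37%) lower in the former, against 1223 (7.96%) here. At the edges of the rule, 455 genes had 50 to 59 counts in the higher library and 525 had 40 to 49, while 253 genes lay between 2 and 2.2-fold and 452 between 1.8 and 2-fold.

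The colon wall is a lining of absorptive colonocytes with mucus-making goblet cells, hormone-making enteroendocrine cells and chemosensory tuft cells, resting on a stroma of fibroblasts, vessels, nerves and immune cells inside a muscle coat. Fibroblasts close to the crypts hold stem cells in place with WNT, BMP and R-spondin signals, and they themselves respond to Hedgehog ligand made by the epithelium. In the AOM/DSS model, repeated injury and repair after a mutagen leads to tumours in the distal colon. RNA of the whole tissue mixes all of these cells, so fewer cells of a type and less RNA per cell cannot be told apart in what follows.

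Library totals were 23022885 to 27706567 counts, at which 3 counts, the floor used where a library had 0, equal 0.119 CPM (untreated WT) or 0.138 CPM (WT AOM/DSS). Colon identity markers held in both WT libraries: 0 of 16 were called higher and 0 lower, with the epithelial keratin Krt8 at 4324 and 5338 CPM. Card9 stood at 44 and 116 counts in the WT libraries and was not lower in those labelled Card9-/- (69 and 245 counts), which are therefore called labelled libraries and only printed beside WT values. Squamous epithelium genes, which would mark the anal canal, reached 50 counts for 3 of 15 and none passed 2-fold. Fat transcripts were highest in untreated WT: 7 of 15 adipocyte genes were lower in AOM/DSS, their levels summed to 1316 CPM in untreated colon against 623 CPM with AOM/DSS (399.8 and 125 CPM in the labelled libraries), and Ucp1 had 0 counts in both WT libraries. Genes that mark the anterior gut summed to 407 and 297 CPM in WT and to 126 and 65.2 CPM in the labelled libraries, among them Osr2 at 116 and 87.3 CPM and 7.55 and 0.379 CPM. Immediate early and heat shock genes had 5 of 16 higher and 0 lower (median log2 ratio 0.67), and mitochondrial mRNAs took 2.79% and 3.90% of the WT counts.

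**Figure D1:**
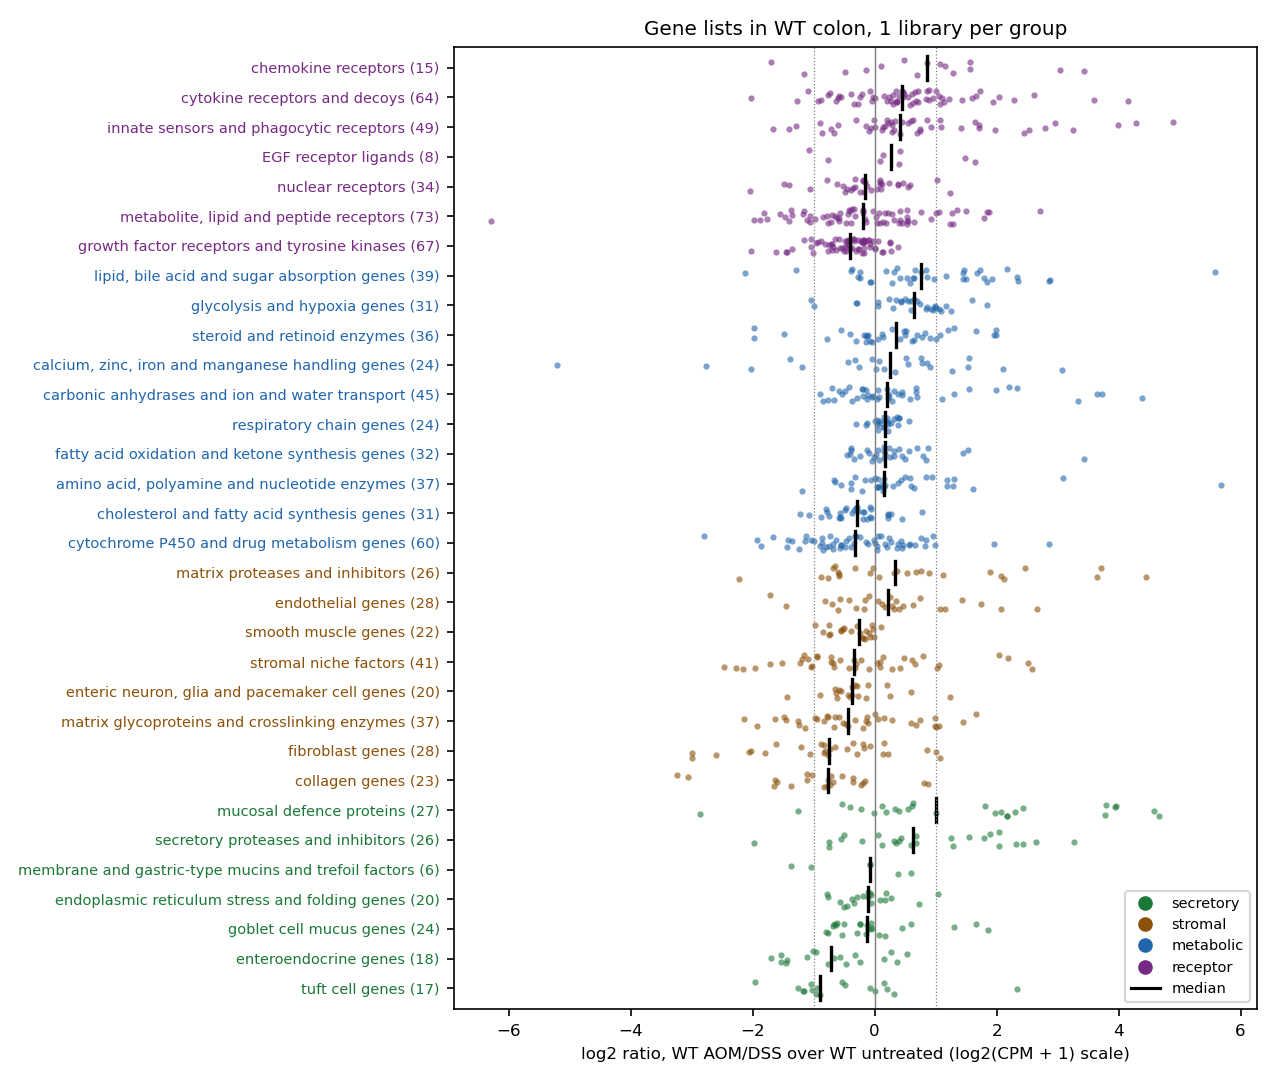
Log2 ratio of WT AOM/DSS over WT untreated on the log2(CPM + 1) scale (horizontal axis) by gene list (vertical axis). Lists are the main secretory, stromal, metabolic and receptor ones. Dots are members that reach 50 counts in either WT library, and black bars are list medians. Mucosal defence genes have a median of 1.01, absorption genes 0.75, tuft cell genes -0.89 and collagen genes -0.77. The median of all genes is 0.02. Neutrophil, B cell, interferon response and adipocyte lists are not drawn.

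Secretions of the lining differed by kind. Many genes of defence proteins made by epithelium and leukocytes were higher in WT AOM/DSS, a few goblet cell products were higher while the main mucin was not, and several genes of hormone-making and tuft cells were lower. Of 27 mucosal defence genes with enough counts, 14 were higher and 2 lower, with a median log2 ratio of 1.01. Retnlb (GRCm38 chromosome 16, 48816856 to 48818892), a goblet cell protein that binds bacterial membranes, had 434 counts untreated against 10085 with AOM/DSS. In CPM these are 17.2 and 462, 26.9-fold higher (24.4 to 29.6), and the labelled libraries held 110.2 and 8.11 CPM. So Retnlb was highest in WT AOM/DSS, and the untreated libraries differed from each other.

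The C-type lectins Reg3b and Reg3g, which kill or hold off bacteria at the mucosal surface, reached 194 and 2707 CPM and 34.4 and 545 CPM in the WT libraries. The untreated libraries did not share a baseline, since the labelled one held 7.13 CPM of Reg3b against 194 in untreated WT. The labelled AOM/DSS library, at 106 CPM of Reg3b, was also below untreated WT. Reg4, a lectin of secretory cells, was 4.24-fold higher (4.08 to 4.41). Lcn2, which binds bacterial siderophores and is also a neutrophil granule protein, stood at 2.14 and 74.5 CPM. Saa3, an acute-phase apolipoprotein of tissues, was at 18.8 and 272 CPM, and its relatives Saa1 and Saa2, which are near-identical copies with uncertain counts, were also called higher. Neutrophil genes moved with these: 12 of 13 were higher, from a summed 20.7 CPM to 555 CPM, and their part in the defence list was not tested. The lower pair were Retnla, a resistin-like protein of alternatively activated macrophages and other cells, at 6.9 and 0.0917 CPM, and Wfdc2, a secreted inhibitor-like protein, at 32.2 and 12.9 CPM.

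The most abundant defence genes were not called. Dmbt1, a scavenger-receptor protein of the mucus layer, stood at 15131 and 20047 CPM. Lypd8, which binds bacterial flagella, was at 9293 and 6992 CPM. Pigr, the receptor that carries IgA into the lumen, was 1.17-fold lower (1.16 to 1.18).

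Goblet cell genes gave 3 higher and 0 lower among 24 (median -0.13). Zg16, a lectin that aggregates Gram-positive bacteria in mucus, was at 658 and 2383 CPM (3.62-fold higher, 3.56 to 3.68). Spink4, a small protease inhibitor of goblet cells, was 3.17-fold higher and Tff3, the trefoil peptide that aids repair of the lining, 2.47-fold higher. In contrast Muc2, the gel-forming mucin that makes up colonic mucus, stood at 13360 and 8674 CPM, 1.54-fold lower and short of the call. Atoh1, the transcription factor that sets the secretory fate, was at 69 and 39.2 CPM. The labelled untreated library already held 2131 CPM of Zg16 and 532 CPM of Tff3, near the WT AOM/DSS levels. Among membrane-bound and gastric-type mucins, 6 of 15 had enough counts: Muc4, a membrane mucin, was at 398 and 193 CPM and called lower, as was the gastric mucin Muc6 at 3.85 and 0.871 CPM, and the abundant membrane mucins Muc13 and Muc3 were not called. Genes for folding and stress of the endoplasmic reticulum gave 1 higher (Derl3) and 0 lower of 20, against 4.08% and 3.88% over all genes. The chaperone Hspa5 was at 482 and 379 CPM.

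Among genes of hormone-making cells, 7 of 18 enteroendocrine genes were lower and 0 higher (median -0.71), against 3.88% and 4.08% over all genes. The granule proteins Chga and Chgb stood at 199 and 73.1 CPM and 275 and 100.2 CPM. Tph1, the rate-limiting enzyme of gut serotonin, was 3.02-fold lower (2.68 to 3.41), with 15.3 CPM in the labelled untreated library, as low as in WT AOM/DSS (16 CPM). Pcsk1 and Cpe, which cut and trim prohormones, were 3.46-fold and 2.17-fold lower. Of single hormones, neurotensin (Nts) was at 25.9 and 8.3 CPM and secretin (Sct) at 34.4 and 16.5 CPM, while Gcg, which encodes the GLP peptides of L cells, was not called.

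Tuft cell genes gave 6 lower and 1 higher of 17 (median -0.89). Trpm5, the cation channel of taste-like signalling, had 390 and 70 counts (15.5 and 3.21 CPM, 4.82-fold lower, 3.73 to 6.31). Both adaptor genes Sh2d6 and Sh2d7 were lower, as were the leukotriene enzymes Alox5 and Ltc4s. Dclk1, a kinase often used to stain tuft cells, was 2.00-fold lower without being called (25 and 12.5 CPM). Alox5ap, the partner of Alox5 that leukocytes also carry, went the other way, at 3.65 and 22.3 CPM.

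**Figure D2:**
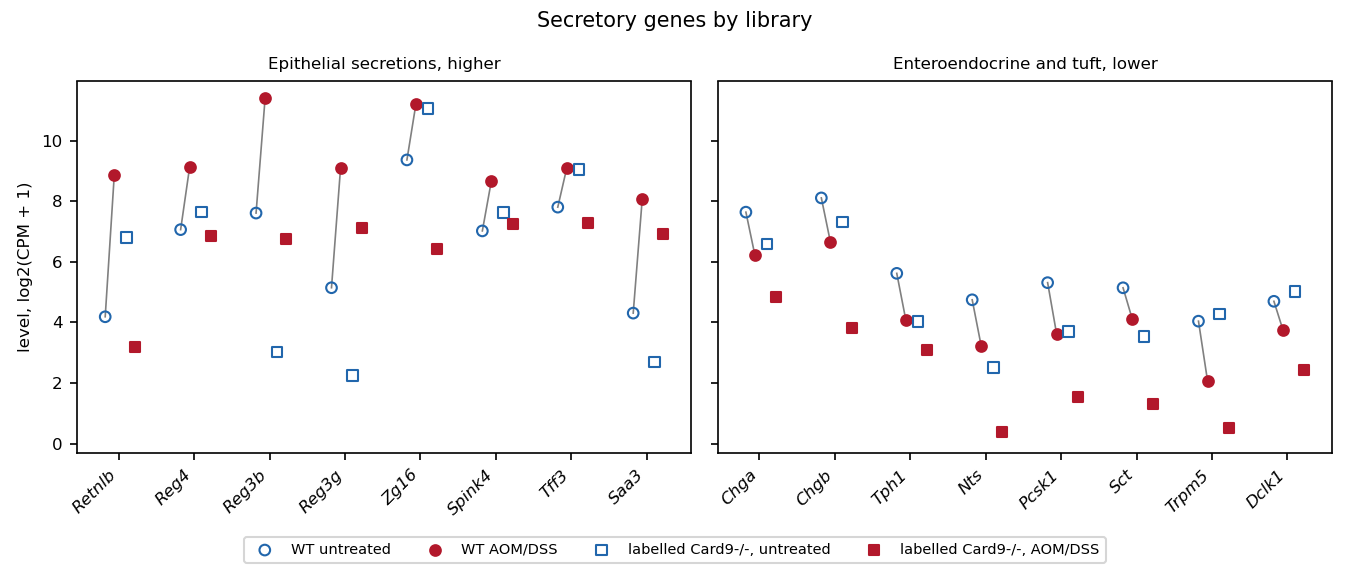
Level of 16 secretory genes in each library on the log2(CPM + 1) scale, with circles for WT joined by a line, squares for the labelled libraries, and open symbols for untreated colon. Retnlb goes from 17.2 to 462 CPM within WT and Trpm5 from 15.5 to 3.21 CPM.

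Secreted proteases and their inhibitors had 11 of 26 higher and 1 lower (median 0.63). Serpina3n, an inhibitor of elastase-like and granzyme proteases, was at 42.3 and 416 CPM (9.83-fold higher, 9.23 to 10.5), and the related Serpina3m had 3 and 447 counts. These belong to a cluster of near-identical copies, so single members are uncertain. Slpi, the secreted inhibitor of leukocyte elastase, stood at 1.79 and 14.1 CPM. Prss22, a tryptase-like protease of epithelium, had 1 and 120 counts. The abundant kallikrein Klk1 was 1.68-fold lower and not called.

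In the stroma, several genes of the fibroblasts around the crypts were lower in WT AOM/DSS. Some genes for R-spondins, BMP antagonists and prostaglandin synthesis were higher. No smooth muscle gene was called, but 21 of 22 had log2 ratios below 0. Of 28 fibroblast genes, 9 were lower and 2 higher (median -0.74). The largest differences were those of Hhip and Gli1, of the Hedgehog response. Gli1 (GRCm38 chromosome 10, 127329882 to 127341579), the transcription factor that is itself switched on by Hedgehog, had 572 and 43 counts (22.7 and 1.97 CPM, 11.5-fold lower, 8.44 to 16.1). Hhip, a decoy that binds Hedgehog ligand, was at 51.7 and 5.59 CPM, and Ptch1, the Hedgehog receptor, at 116 and 27.7 CPM. In the labelled libraries Gli1 stood at 15.5 and 2.21 CPM and Hhip at 32 and 7.51 CPM, so for both genes the untreated libraries were above the AOM/DSS libraries in each genotype.

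A list of 17 Hedgehog pathway genes, put together after these values had been seen, had 15 members with enough counts, of which 7 were lower and 0 higher. The 15 log2 ratios were all below 0 (median -0.83). Hhip, Gli1, Ptch1 and Foxl1 are also counted in the fibroblast list, so the lists are not separate results. By role, the epithelial ligand Ihh was at 106 and 77.9 CPM and the transducer Smo was at 46.4 and 29.3 CPM, neither of them called. Among receptors and co-receptors, Gas1 was lower at 13.7 and 4.36 CPM, whereas Boc and Cdon were not called. Of the stromal targets, Foxl1, which marks the telocytes beneath the epithelium, was at 3.73 and 0.367 CPM, and Bmp4 at 48.2 and 22.1 CPM.

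Beyond this pathway, Pdgfra, the platelet-derived growth factor receptor of fibroblasts, was 3.1-fold lower (136 and 43.8 CPM). Clec3b and Dpt, secreted proteins of adventitial fibroblasts, were 6.78-fold and 4.25-fold lower. C3, the central complement component, was called higher at 201 and 425 CPM. Itga11, a collagen-binding integrin, and C1qtnf3, a secreted C1q-like protein, were among the 25 lowest genes of the whole table, at 24.1 and 1.79 CPM and 20.4 and 1.51 CPM. Pcsk6, a convertase that activates growth factor precursors, was lower still by ratio, at 69.4 and 4.26 CPM (16.3-fold, 13.2 to 20.3), with 55.4 and 37.6 CPM in the labelled libraries.

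Niche factors went both ways, with 6 higher and 12 lower of 41 (median -0.34). The lower group held BMP ligands, which restrain crypt growth, and WNT ligands. Bmp5 was at 24.4 and 3.58 CPM (6.82-fold lower, 5.38 to 8.75) and Bmp7 was also called. Wnt2b stood at 42.1 and 8.71 CPM and Wnt4 at 14.5 and 2.98 CPM, and both Wnt5a and Wnt5b were lower. The higher group held Grem1, a secreted BMP blocker, at 16.2 and 77.5 CPM (4.79-fold, 4.29 to 5.35), and the WNT-enhancing R-spondins Rspo1 and Rspo3 at 0.873 and 2.89 CPM and 3.69 and 8.57 CPM. Chrdl2, another BMP-binding antagonist, was not on the list but among the 25 highest genes, at 1.59 and 47.9 CPM. The labelled libraries held 2.62 and 3.16 CPM of Chrdl2, so it was high in WT AOM/DSS alone. Ptgs2, the inducible prostaglandin synthase, was at 5.04 and 35.1 CPM and Inhba, the activin A subunit, at 0.317 and 4.4 CPM. Igfbp5, which binds insulin-like growth factors, was the most abundant of the higher group, going from 4054 to 20216 counts (5.76-fold, 5.57 to 5.96), while Igfbp6 and Igfbp3 were lower.

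Collagen genes gave 9 of 23 lower and 0 higher (median -0.77), against 3.88% and 4.08% over all genes. Col8a1, a short-chain network collagen, was at 56.5 and 5.09 CPM and Col14a1, which sits on fibril surfaces, at 85.2 and 9.35 CPM. The chains of the microfibrillar collagen VI (Col6a1, Col6a2, Col6a3 and Col6a4) and the paired X-linked basement membrane chains Col4a5 and Col4a6 were lower, Col4a5 by 3.27-fold. Col3a1, a main fibrillar collagen, was 1.79-fold lower and not called (905 and 506 CPM), and the vessel and epithelial basement membrane chain Col4a1 was at 429 and 387 CPM. Among matrix glycoproteins 8 were lower and 4 higher of 37: Fbln1 and Fbn1, of elastic and microfibrils, stood at 134 and 29.7 CPM and 119 and 42.1 CPM, Tnxb at 370.3 and 119 CPM, and Mgp, an inhibitor of calcification, went the other way at 38.7 and 124 CPM. Fibronectin (Fn1) hardly differed, at 493 and 510.3 CPM.

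Matrix-degrading enzymes and their inhibitors had 8 of 26 higher and 1 lower (median 0.34). Mmp10, a stromelysin of wounded epithelium and macrophages, had 8 and 606 counts, and Mmp3, the stromelysin of fibroblasts, 45 and 771. Mmp8 is the collagenase of neutrophils and went from 2 to 273 counts. Timp1, an inhibitor of these enzymes, was at 2.1 and 12.1 CPM and Plaur, the urokinase receptor, at 11.2 and 52.2 CPM. Adamdec1, a metalloprotease of resident gut macrophages and fibroblasts, was the lower member, at 895 and 192 CPM (4.67-fold, 4.52 to 4.82), and the labelled libraries held 232 and 145 CPM.

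**Figure D3:**
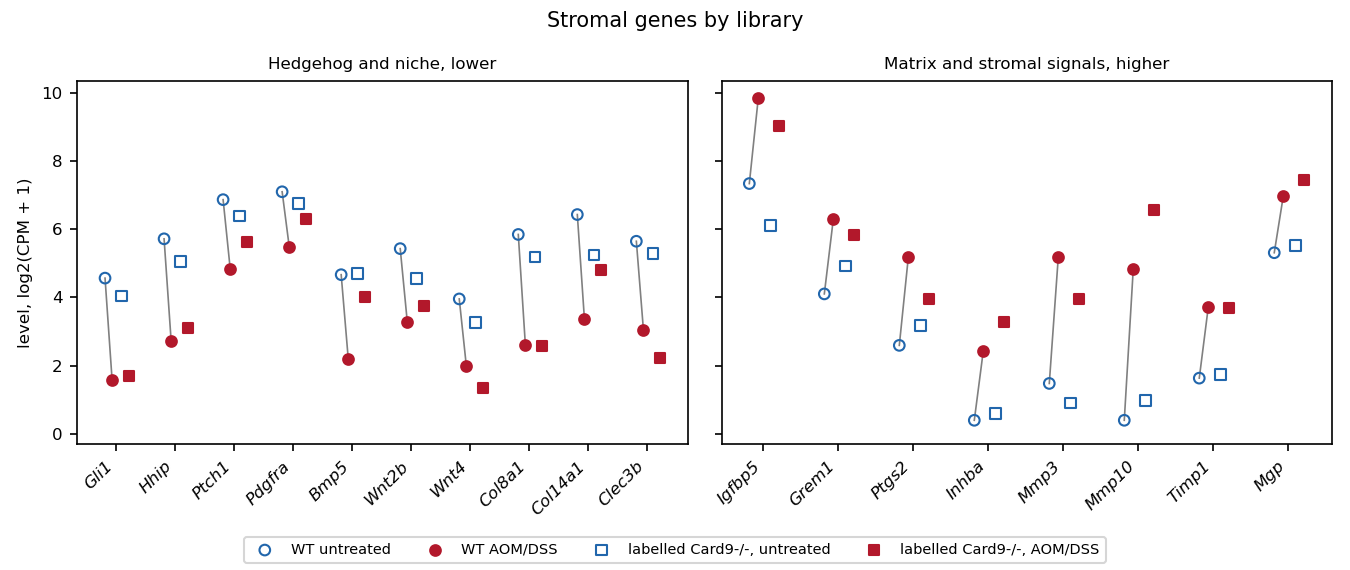
Level of 18 stromal genes in each library on the log2(CPM + 1) scale, with circles for WT joined by a line, squares for the labelled libraries, and open symbols for untreated colon. Gli1 goes from 22.7 to 1.97 CPM and Grem1 from 16.2 to 77.5 CPM in WT.

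Other cells of the wall give a measure of what else the pieces of tissue held. Of 22 smooth muscle genes 0 were called higher and 0 lower (median -0.26), with Myh11, the smooth muscle myosin, at 3464 and 2424 CPM. Still, 21 of the 22 log2 ratios were below 0, and the levels summed to 14110 and 10970 CPM. Neural, glial and pacemaker genes gave 1 higher and 1 lower of 20, against 4.08% and 3.88% over all genes. Kit, which marks pacemaker cells and mast cells, was lower at 153 and 55.7 CPM, and the glial filament Gfap higher at 8.81 and 22.1 CPM. Of 28 endothelial genes 6 were higher and 2 lower (median 0.21). The venule adhesion molecules Selp, Sele, Vcam1, Icam1 and Madcam1 were higher, Selp at 4.21 and 31.9 CPM. In contrast the lymphatic markers Lyve1 and Flt4 were lower, at 27.8 and 7.79 CPM and 28 and 9.63 CPM. Adipocyte genes, lower as given above, moved in the same direction as the collagen and fibroblast lists, and their part in those lists was not tested.

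Transport and absorption genes had more higher than lower members. Of 45 ion and water transport genes 10 were higher and 0 lower (median 0.20). Scnn1g (GRCm38 chromosome 7, 121734420 to 121768482), the gamma subunit of the epithelial sodium channel, had 4 and 313 counts (90.4-fold higher, 35 to 334), and the beta subunit Scnn1b was at 14.4 and 37 CPM. Hsd11b2, which inactivates glucocorticoids so that aldosterone can act, was at 148 and 589.8 CPM and the kinase Sgk1, an aldosterone target, at 136 and 398 CPM. The labelled libraries held 3.45 and 25.3 CPM of Scnn1g and 369 and 31.2 CPM of Hsd11b2, so these genes did not share an order across the libraries.

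Best2, a bicarbonate channel of goblet cells, was at 3.09 and 50.4 CPM (16.3-fold, 12.9 to 20.8). Slc16a3, a lactate exporter of glycolytic cells, stood at 2.74 and 36.5 CPM, and Guca2b, which encodes the secretion-regulating peptide uroguanylin, at 10.5 and 51.8 CPM. The table's AI747448 and Clca6 are older names of neighbouring chloride-channel regulator genes of the Clca family. They reached 6.31 and 151 CPM and 106 and 539 CPM, with counts that may be divided between similar copies. The abundant Car1, a carbonic anhydrase of colonocytes, was at 7654 and 5313 CPM and not called, but stood at 857 CPM in the labelled untreated library.

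Absorption genes, many of them typical of the small intestine, had 16 of 39 higher and 2 lower (median 0.75). Genes of lipoprotein assembly were among them: Apoa1, the main protein of HDL, had 7 and 1309 counts (0.278 and 60.02 CPM), Apoa4 had 0 and 88 (at least 33.9-fold higher against the floor of 3 counts), Mttp, which loads lipid onto apolipoprotein B, stood at 1.51 and 17.4 CPM, and Apob at 199 and 548 CPM. High Apoa1 was seen in WT AOM/DSS alone, since the labelled libraries held 0.414 and 0.347 CPM. Npc1l1, the cholesterol uptake protein, was at 1.59 and 12.2 CPM, and Fabp6, which binds bile acids in ileal cells, at 3.97 and 17.9 CPM. Slc6a19, a carrier of neutral amino acids, was at 2.42 and 8.44 CPM. Brush border enzymes that colon already expressed, such as Mgam and Mep1a, were not called. The lower members were Cd36, a fatty acid receptor also of fat and vessels, at 42.2 and 16.6 CPM, and the pancreatic colipase gene Clps at 6.94 and 0.825 CPM.

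Drug-metabolising enzymes had 11 of 60 lower and 2 higher (median -0.33), against 3.88% and 4.08% over all genes. Cyp2c55, an abundant colonic P450, was at 1684 and 533 CPM (3.16-fold lower, 3.1 to 3.23), and at 218 and 0.221 CPM in the labelled libraries. Cyp26b1, which breaks down retinoic acid, was 10.6-fold lower (7.52 to 15.3) and the carboxylesterase Ces1g 3.7-fold lower. Cyp2e1, which oxidises small solvents and AOM metabolites and is also a fat and liver gene, was at 64.9 and 23.3 CPM. The higher pair, Cyp2d9 and Cyp2d10, are near-identical copies, so their counts are uncertain. Steroid and retinoid genes gave 8 higher and 3 lower of 36. Within the retinoid pathway, the dehydrogenase Dhrs9 was at 11.8 and 49.7 CPM, while Aldh1a2, which makes retinoic acid in stroma, was lower at 9.56 and 2.75 CPM.

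Respiratory chain genes had 0 higher and 0 lower of 24 (median 0.17), and fatty acid oxidation genes 3 higher of 32, led by the transcription factor Creb3l3 at 2.18 and 33.3 CPM. Cholesterol and fatty acid synthesis genes had 2 lower of 31, the desaturase Scd1 (198 and 84 CPM) and the sterol sensor Insig1 (113 and 53.5 CPM). Over all genes 3.88% were lower. Glycolysis and hypoxia genes gave 7 higher and 1 lower of 31 (median 0.64): Hif1a, the oxygen-regulated factor, was at 30.9 and 95.5 CPM, Egln3, the hydroxylase that it induces, at 22.2 and 82.2 CPM, and Ldha, lactate dehydrogenase, at 1225 and 1908 CPM without a call.

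Among amino acid enzymes, 7 of 37 were higher and 1 lower. Irg1, the itaconate-making enzyme of activated myeloid cells, had 6 and 1354 counts. Slc7a11, the cystine importer that feeds glutathione, was at 1.19 and 17.7 CPM and both arginases, Arg1 and Arg2, were called, Arg1 at 4.28 and 11.9 CPM. The urea cycle enzyme gene Otc was the lower one, at 28.9 and 12.1 CPM.

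Mineral handling genes were split, 5 higher and 5 lower of 24. S100g, the vitamin D-dependent calcium-binding protein calbindin-D9k, had 3194 counts untreated against 54 with AOM/DSS (127 and 2.48 CPM). The labelled libraries held 24.3 and 0.663 CPM, so untreated WT was the highest of the 4 by a wide margin. Slc30a10, a manganese exporter, was at 121 and 16.8 CPM and at 6.81 and 0.0631 CPM in the labelled libraries. Trpm6, the magnesium channel, was 4.21-fold lower (3.8 to 4.66). Vdr, the vitamin D receptor, was at 388 and 309.6 CPM and not called.

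The metallothioneins Mt1 and Mt2, small proteins that bind zinc and copper, were higher: Mt1 was at 21.1 and 93.6 CPM and Mt2 at 10.04 and 92.3 CPM (9.2-fold, 8.07 to 10.5). The labelled untreated library held 122 CPM of Mt1 and 51.2 CPM of Mt2, above untreated WT. Both genes lie side by side on chromosome 8, and the 150 bases before each start are shown because the family is the textbook case of metal control at the promoter. They come from RefSeq on GRCm38.p6, plus strand (chr8:94178939-94179088 for Mt1 and chr8:94172468-94172617 for Mt2), with capitals where the letters TGCACNC or TGCGCNC, a core of the metal response element, match on either strand.
Mt1: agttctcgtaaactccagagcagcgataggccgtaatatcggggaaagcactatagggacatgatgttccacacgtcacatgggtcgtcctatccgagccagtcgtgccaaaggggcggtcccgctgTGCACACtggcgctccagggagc
Mt2: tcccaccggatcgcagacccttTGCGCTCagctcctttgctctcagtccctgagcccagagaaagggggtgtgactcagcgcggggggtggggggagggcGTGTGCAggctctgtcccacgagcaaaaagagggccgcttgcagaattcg
In the full 250 bases before the start Mt1 has 1 match and Mt2 has 3, of which 1 lies outside the bases shown. Only bases before the start annotated by RefSeq were searched, so these are not counts of all such elements of either gene. Such letters are common, with at least 1 match in 21.4% of 32851 promoters of that length and at least 3 in 1.26%, and the lower gene Slc30a10 also has 3. A match describes the sequence and shows no binding.

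**Figure D4:**
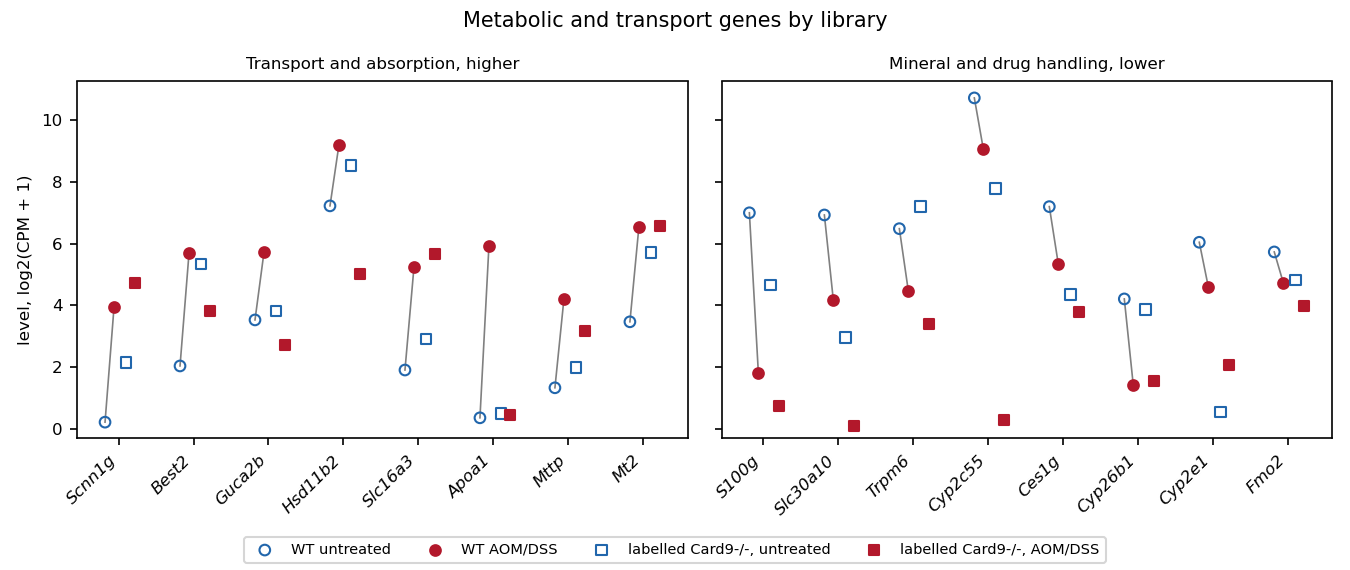
Level of 16 transport and metabolic genes in each library on the log2(CPM + 1) scale, with circles for WT joined by a line, squares for the labelled libraries, and open symbols for untreated colon. S100g goes from 127 to 2.48 CPM and Scnn1g from 0.159 to 14.4 CPM in WT.

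Receptors for cytokines, chemokines and microbial products had members higher in WT AOM/DSS. No growth factor receptor was called higher, where the share over all genes was 4.08%. The gene with the lowest log2 ratio of all 15356 was a receptor: Gpr17, an orphan receptor related to those for nucleotides and leukotrienes and best known from oligodendrocyte precursors. It had 5032 counts untreated against 34 with AOM/DSS (199.6 and 1.56 CPM, 128-fold lower, 91.5 to 185), and 25 in each labelled library. Gpr17 was thus high in untreated WT alone, and the labelled untreated library was as low as both AOM/DSS libraries. Which part of the gene the reads cover cannot be seen in a count per gene, so whether they stand for a full transcript in that library was not tested. Myo7b, a brush border myosin whose gene neighbours Gpr17, went the other way, at 156 and 475 CPM. Any link between the counts of these neighbouring genes was not tested.

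Of 73 receptors for metabolites, lipids and peptides, most of them G protein-coupled, 11 were higher and 15 lower (median -0.19). Tacr1, the substance P receptor, was at 5.08 and 39 CPM (7.68-fold higher, 6.37 to 9.33). Niacr1, an older symbol for the niacin and butyrate receptor gene Hcar2, stood at 2.86 and 13.2 CPM, and the formyl peptide receptor Fpr1 of phagocytes at 0.436 and 4.17 CPM. In the lower group, Lgr5, the R-spondin receptor of crypt stem cells, was at 9.8 and 1.74 CPM in WT and at 9.16 and 101 CPM in the labelled libraries. Glp2r, the receptor of the gut growth hormone GLP-2, was at 17.1 and 3.94 CPM, the somatostatin receptor Sstr1 at 79.8 and 21.9 CPM and the short-chain fatty acid receptor Ffar2 at 46.2 and 16 CPM. Vipr1, the most abundant of the list, was not called.

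Cytokine receptors and decoys gave 16 higher and 3 lower of 64 (median 0.46). In the interleukin 1 branch both natural antagonists were higher, with the decoy receptor Il1r2 at 0.833 and 31.6 CPM and the receptor antagonist Il1rn at 10.9 and 56.7 CPM. Csf3r, the G-CSF receptor of neutrophils, was at 2.54 and 41.6 CPM, and Il1rl1, the receptor of interleukin 33, at 3.37 and 17 CPM. Tnfrsf19, a WNT-regulated member of the tumour necrosis factor receptor family, was at 9.05 and 1.47 CPM and at 5.43 and 89 CPM in the labelled libraries, so the labelled AOM/DSS library was the highest. Widely expressed subunits, such as Il6st and Ifngr1, were not called. Among 15 chemokine receptors 7 were higher, with Cxcr2, which guides neutrophils, at 2 and 233 counts and Cxcr5, which guides B cells into follicles, at 0.912 and 14.7 CPM. The lower pair were Cx3cr1 of resident macrophages (26 and 11.1 CPM) and the scavenging receptor Ackr4 (13.1 and 3.35 CPM).

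Innate sensors gave 15 higher and 3 lower of 49 (median 0.42). Clec4e and Clec4d, C-type lectin receptors that signal through Card9, had 2 and 436 counts and 6 and 235 counts. Nlrp3, the inflammasome sensor, was at 1.94 and 19.3 CPM, and Cd14, the co-receptor for lipopolysaccharide, at 22 and 132 CPM. The lower ones were Mrc1 and Siglec1, of resident macrophages, and Cd36, with Mrc1 at 39.3 and 14.2 CPM. Macrophage genes as a list gave 1 higher and 3 lower of 15, and C1qb stood at 90.3 and 68.4 CPM.

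Growth factor receptors gave 9 lower and 0 higher of 67 (median -0.40). Besides Ptch1, Pdgfra, Flt4 and Kit, given above, these were the WNT receptors Fzd7 (28.4 and 10.5 CPM), Fzd2 (15.3 and 6.28 CPM) and Ror1, the netrin receptor Unc5a and the ephrin receptor Ephb3. The epithelial receptors Erbb2 and Erbb3 were not called, Erbb2 at 247 and 249 CPM. Of 8 genes listed as EGF receptor ligands 2 were higher and 1 lower. Epiregulin (Ereg) and amphiregulin (Areg) were higher, at 9.12 and 30.9 CPM and 14.3 and 42 CPM. Nrg2 was lower, with a log2 ratio of -1.08. Nuclear receptors had 2 higher and 4 lower of 34, against 4.08% and 3.88% over all genes. Nr1d1, a clock repressor, was at 146 and 54.5 CPM. In the clock list Per2 (16 and 54.3 CPM) and Nfil3 were higher and Nr1d1, Hlf and Npas2 lower, and the part of the hour of collection was not tested.

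**Figure D5:**
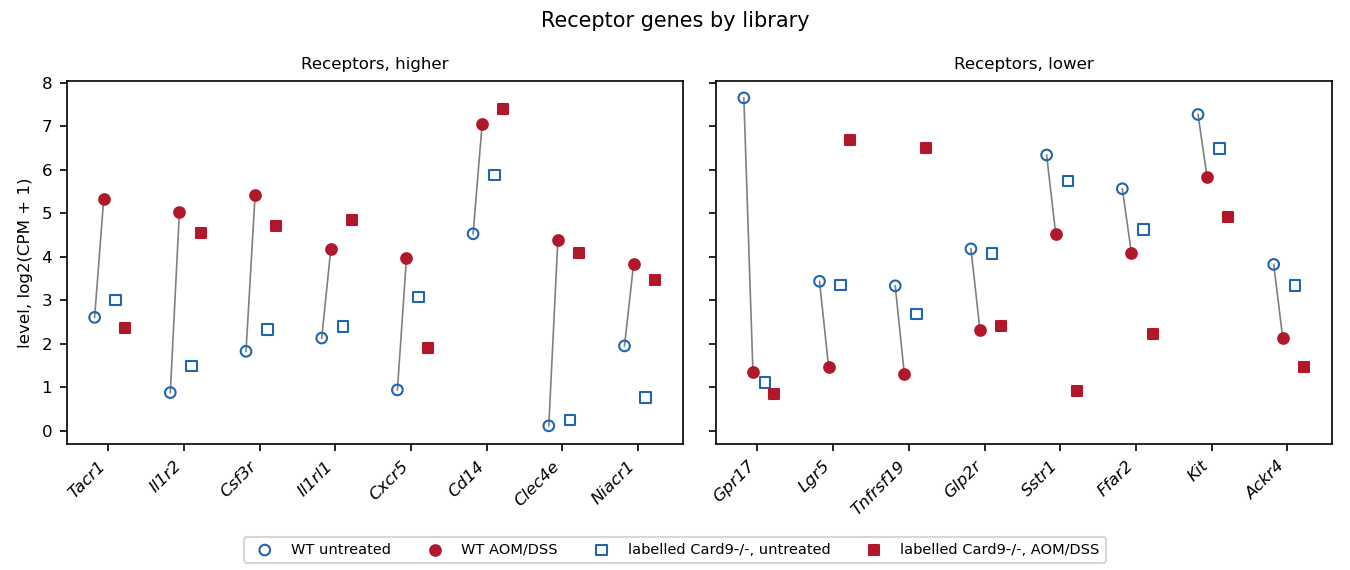
Level of 16 receptor genes in each library on the log2(CPM + 1) scale, with circles for WT joined by a line, squares for the labelled libraries, and open symbols for untreated colon. Gpr17 is high in untreated WT alone, at 199.6 CPM, and Lgr5 goes from 9.8 to 1.74 CPM in WT.

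In the crypt lists, called genes were lower in WT AOM/DSS apart from Mmp7. WNT target and stem cell genes summed to 961 and 765 CPM in WT and to 874 and 4182 CPM in the labelled libraries. Proliferation genes summed to 1184 and 728 CPM in WT and to 821 and 2135 CPM in the labelled libraries. Of 20 WNT target and stem cell genes 1 was higher, Mmp7 at 1.9 and 15 CPM, and 5 were lower (median -0.41). Axin2, a feedback target of WNT, stood at 40.1 and 10.4 CPM and Ascl2, a stem cell factor, at 4.76 and 1.15 CPM. Proliferation genes gave 0 higher and 2 lower of 20, with Mki67 at 304 and 179 CPM and the replication helicase subunit Mcm6 at 102 and 43.8 CPM. Of the genes listed for squamous keratins and fetal-like, regenerating epithelium, 11 of 21 were higher and 0 lower (median 1.01). The largest log2 ratios were those of Il1rn and Plaur, which with Ereg and Areg are also counted in lists above. The part of immune cells in this list was not tested. Clu, which marks revival cells of the crypt, was at 52.6 and 180.4 CPM and Ly6d at 1.55 and 7.06 CPM, but the abundant Ly6a and Krt7 were not called.

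B cell and follicle genes were higher in WT AOM/DSS, with 22 of 26 called higher and 0 lower (median 2.10). Cr2, a complement receptor of follicular dendritic and B cells, was at 0.317 and 13.6 CPM in WT and 9.21 and 1.39 CPM in the labelled libraries, and Cd22, an inhibitory co-receptor, at 3.17 and 32.7 CPM and 23.9 and 7.92 CPM. Untreated WT was the lowest of the 4 for both genes. The antibody constant regions differed by class: Ighg2b had 144 and 6743 counts and Ighg2c 99 and 5430, which are similar sequences with uncertain single counts, while Ighg1 had 175 and 364 and the kappa chain Igkc 14565 and 18555. The J chain, listed as Igj, was at 329.5 and 286 CPM. T cell genes gave 4 higher and 0 lower of 14.

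Interferon response genes had the largest share of lower members among the 49 lists, 15 of 18 lower and 0 higher (median -2.20). Isg15, a ubiquitin-like protein, was at 101 and 13 CPM and at 27.2 and 145 CPM in the labelled libraries. Ifit1, which binds foreign RNA, was at 116 and 28.9 CPM (33.7 and 136 CPM in the labelled libraries), and Bst2, which tethers budding virus and is not on the list, at 99.7 and 14.4 CPM. The labelled untreated library was nearer to WT AOM/DSS than to untreated WT for all 3. Their promoters, chosen among those that hold the letters searched for, are shown for a control sequence known from many interferon genes. Whether it has a part in the lower levels was not tested. The 150 bases before each start come from RefSeq on GRCm38.p6 (Isg15 chr4:156200819-156200968, minus strand; Ifit1 chr19:34640739-34640888, plus strand; Bst2 chr8:71537473-71537622, minus strand), with capitals at matches to GAAA, any 2 bases and GAAA again, the core of the interferon-stimulated response element, on either strand.
Isg15: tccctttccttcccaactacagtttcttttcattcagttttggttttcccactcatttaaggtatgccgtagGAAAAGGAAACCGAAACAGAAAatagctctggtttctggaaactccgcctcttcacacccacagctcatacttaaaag
Ifit1: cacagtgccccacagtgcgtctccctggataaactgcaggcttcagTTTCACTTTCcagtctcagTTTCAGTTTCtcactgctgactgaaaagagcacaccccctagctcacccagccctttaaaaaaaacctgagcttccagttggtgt
Bst2: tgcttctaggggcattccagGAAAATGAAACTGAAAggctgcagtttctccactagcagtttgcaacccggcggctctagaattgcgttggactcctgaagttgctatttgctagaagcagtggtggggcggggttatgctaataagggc
Isg15 has 3 overlapping matches, Bst2 has 2 that overlap, and Ifit1 has 2 apart. At least 1 match is found in the 250 bases before the start in 2.98% of 32851 promoters and at least 2 in 0.18%. Of the 18 interferon list genes 13 have a promoter in the table used, and 8 of these have a match. A match is a description of letters, and its absence says nothing about the factor.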

How the data were processed

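Colon RNA was sequenced in 4 libraries, 1 per group, from a standard Ion Proton RNA-seq kit, per the labels' protocols. The authors deposited whole-number read counts per gene symbol without normalization, on GRCm38 (mm10) per the submitters' processing notes. The sources used here name no aligner, counter, annotation or strand setting, so reads of overlapping, antisense and near-identical genes cannot be told apart. Of 44788 rows, 27 carried a date in place of a symbol and were left unnamed, and 0 columns of other samples were present. Some genes that the rule names are left out of the text. Totals were 25422042 counts (WT untreated), 23022885 (WT AOM/DSS), 23332004 (labelled untreated) and 27706567 (labelled AOM/DSS).

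CPM were computed with TMM factors over all 4 libraries (edgeR 4.0.16, R 4.3.3), and the log2 ratio was taken on log2(CPM + 1), which understates differences of low genes. Intervals on CPM ratios are exact 95% Clopper-Pearson intervals conditional on both counts (scipy 1.17.1). They hold counting error alone, because each group has 1 library. Reads carry no molecular identifiers and may be copies of the same molecule, so the intervals may be too narrow even for counting error. A fold against a library at 0 counts is a lower bound, taken against 3 counts there. No p-value was computed. The scripts were tested on simulated data. Gene positions and promoters are RefSeq's for GRCm38.p6, and 14236 of 15356 genes matched by symbol.

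The contrast, the 49 lists and the rule for named genes were chosen with earlier results of these data known. Named genes were up to 6 members of a list with the largest absolute ratio (3 for lists of other cell types and sample quality), its 3 most abundant members, the 25 highest and 25 lowest genes overall (without antigen receptor segments, mitochondrial or predicted genes and pseudogenes), and Card9. The Hedgehog list was put together after its values were seen, as were the following choices outside the rule: Aldh1a2, Arg2, Ascl2, Axin2, Bmp7, Cd36, Col6a1, Col6a3, Cyp2e1, Dclk1, Ephb3, Fabp6, Ffar2, Hlf, Icam1, Ifit1, Igfbp3, Ighg1, Ighg2b, Ighg2c, Igkc, Inhba, Ltc4s, Myo7b, Npas2, Reg4, Ror1, Rspo1, Rspo3, Saa1, Saa2, Scnn1b, Sct, Sgk1, Siglec1, Slc6a19, Sstr1, Timp1, Unc5a, Wfdc2, Wnt4, Wnt5a and Wnt5b. Alternatives were DESeq2 1.42.0 size factors, upper-quartile factors, library totals, TMM from the WT libraries alone, pseudocounts of 0.5 and 5 CPM, other count minimums, genes above 1% of a library left out, and libraries thinned to the smaller total.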

Additional observations from a re-analysis of the deposited data

Results flagged for a closer look

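Set beside the labelled pair of libraries, 2 lists had medians of opposite sign that were at least 2-fold in both pairs. Lists with smaller medians of opposite sign are not given here. B cell and follicle genes had a median log2 ratio of AOM/DSS over untreated of 2.10 in WT and -1.60 in the pair labelled Card9-/-, and interferon response genes had -2.20 in WT and 2.24 in the labelled pair. With 1 library per group the difference between the genotypes was not tested. For Cr2 the levels were 0.317 and 13.6 CPM in WT and 9.21 and 1.39 CPM in the labelled libraries, and for Isg15 101 and 13 CPM and 27.2 and 145 CPM.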

How the results depend on the processing

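The counts of 627 higher and 596 lower genes stayed within 1.5 times under 9 of 11 alternatives. A pseudocount of 5 CPM gave 314 higher and 268 lower, since low genes then fall short of 2-fold, and a minimum of 200 counts, which leaves 11749 genes, gave 409 higher and 411 lower. The share of called genes that were higher was 51.3%, and between 45.6% (library totals alone) and 54.0% elsewhere. Of 216 named genes past 2-fold, 42 fell below it under at least 1 alternative, 41 of them with the pseudocount of 5 CPM, and 0 changed direction. Derl3, Eno1 and Nr4a1 fell below 2-fold with library totals alone. Of the 49 list medians, 4 changed sign under some alternative: distal gut position, pancreas, squamous epithelium and metabolite, lipid and peptide receptor genes, none of which had a median beyond 0.323 in size. No paired analysis was possible because each group holds 1 library, and leaving out a replicate was impossible for the same reason. Depth limits the genes near the minimum: a gene with 1 or 0 counts in untreated WT, such as S100a8 or Cxcl2, has a fold known only as a wide interval or a lower bound. No group has a replicate library, so the spread between mice is not in any of these values.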

Other observations

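Values that stood out and were chosen after they were seen are given here without explanation. Tnni1, the slow skeletal muscle troponin, was at 25.6 and 3.03 CPM in WT and at 95 and 9.09 CPM in the labelled libraries. Grin3a, a subunit of NMDA-type glutamate receptors, was at 24.8 and 2.06 CPM in WT and at 4.28 and 0.189 CPM in the labelled libraries. Hdc, which makes histamine, was at 0.397 and 37.4 CPM in WT and 0.69 and 19.7 CPM in the labelled libraries, so both AOM/DSS libraries were above both untreated ones. Ly6g, a neutrophil surface protein, had 1 count in untreated WT and 1189 in the labelled untreated library, where the neutrophil protein gene S100a8 had 2 counts.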
